A study of Caenorhabditis elegans with 2 samples.

Results

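The genes described here are mir-8196.1 and mir-8196.2, a pair of microRNA (miRNA) genes on the X chromosome of Caenorhabditis elegans, 2 of the 260 genes that the annotation classes as miRNA genes, which is what the term means throughout. They were chosen by name after their occupancy by SNPC-4 had been seen in the lists described below, so their signal values, ranks and summit positions are given as a description and carry no test. The experiment was a ChIP-seq of SNPC-4, which sequences the DNA fragments that an antibody pulls down together with a protein. The material was embryos, whole, of pooled sex and of mixed stages, from strain OP179, whose genotype is unc-119(ed3) III; wgIs179 and whose insertion carries snpc-4 tagged with eGFP. The antibody is given by the labels as against snpc-4 and the assay as against eGFP-snpc-4, so whether it recognised the tag is not stated. There was 1 group with 2 libraries, biological replicates 1 and 2, and no library of a control is analysed here. The values come from 3 lists of 30000 candidate regions in genome build ce11, for replicate 1, for replicate 2 and for both pooled, and each region has a signal value and a summit, the position of its strongest signal. The strong set of a list, used below, is its top down to the number of regions that the authors' thresholded ce10 list holds.

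SNPC-4 is the worm counterpart of the largest subunit of SNAPc, a complex that activates transcription of small nuclear RNA genes. SNAPc binds a proximal sequence element shortly upstream of the genes for these RNAs (snRNAs), which act in splicing, and of the spliced leader (SL) RNAs that nematodes join to the front of their messenger RNAs. In worms SNPC-4 also binds the clusters of piRNA genes. miRNA genes encode hairpins that are cut to a precursor and then to a short duplex, of which a strand guides Argonaute proteins to messenger RNAs through its seed, and most miRNA genes are transcribed by RNA polymerase II.

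The sequences of the pair are shown first, since they are what its members share besides occupancy. All were read from the RefSeq genome of the ce11 assembly at the annotated positions. The first set is the annotated mature RNAs, 5′ to 3′, with the seed (bases 2 to 8) in capitals. For mir-8196.1, arm a is at chrX:2329038-2329061 and arm b at chrX:2329081-2329103, both on the plus strand, and for mir-8196.2, arm a is at chrX:14324448-14324470 and arm b at chrX:14324406-14324429, both on the minus strand.
mir-8196.1 arm a: cCCCAUAGaaauauuuucuauguc
mir-8196.2 arm a: cCCAUAGAaauauuuucuauguc
mir-8196.1 arm b: gUAGUUAAuuuuucuuugggaau
mir-8196.2 arm b: uGUAGUUAauuuuuucuuugggaa

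The a arms agreed at 23 of 24 aligned positions, and the remaining position was a gap. The b arms agreed at 22 of 25, and the other 3 were gaps. No aligned base of either arm was mismatched, but the annotated 5′ ends differ by 1 base, so that the seeds of the 2 genes are neighbouring registers of the same stretch. None of the 4 seeds is the seed (bases 2 to 8) of a mature RNA of any of the 258 other miRNA genes, among the 458 mature RNAs annotated in all. The precursors, which run from the first base of arm a to the last base of arm b, show the same likeness, with both arms in capitals and the loop in lower case.
mir-8196.1 precursor: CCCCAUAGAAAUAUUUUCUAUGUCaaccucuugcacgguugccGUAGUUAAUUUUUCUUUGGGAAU
mir-8196.2 precursor: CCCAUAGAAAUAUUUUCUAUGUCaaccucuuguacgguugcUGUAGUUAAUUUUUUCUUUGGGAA

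The precursor of mir-8196.1 is 66 bases long (chrX:2329038-2329103, plus strand) and that of mir-8196.2 is 65 (chrX:14324406-14324470, minus strand). They were the same at 62 of 67 aligned positions (92.5%), with 2 mismatches and 3 gaps. Each was predicted to fold into a hairpin of 22 base pairs, with a minimum free energy of −25.3 kcal/mol for mir-8196.1 and −21.0 kcal/mol for mir-8196.2. Over the whole annotated genes, 131 bp and 163 bp long, identity was 67.9%, with 17 mismatches and 36 gaps in 165 aligned positions. This low value partly reflects the unequal annotated ends. A local alignment not bound by the end of mir-8196.1 gave 90.2% identity over 132 positions. By the segments given further on, the precursor was the most alike part of the gene.

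Both genes had 1 region with a summit within 200 bp of the gene in each of the 3 lists, and both lay near the top of each list. At mir-8196.1 (X, 2328994 to 2329124, plus strand) the signal value was 886 in the pooled list, 455 in replicate 1 and 438 in replicate 2. Its rank was 32 in the pooled list, 31 in replicate 1 and 35 in replicate 2, out of 30000 regions each. It was the strongest region on the X chromosome in all 3 lists, of 5677, 5776 and 5491 regions there.

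At mir-8196.2 (X, 14324355 to 14324517, minus strand) the signal value was 363 in the pooled list, 151 in replicate 1 and 207 in replicate 2. The rank was 67 in the pooled list, 71 in replicate 1 and 64 in replicate 2. Among the regions on X its place was 3 in the pooled list, 4 in replicate 1 and 3 in replicate 2. The lists differ in their scale, so signal is compared within a list: in the pooled list mir-8196.1 stood 92.0 times and mir-8196.2 stood 37.7 times above the median region. The −log10 q value of both regions was the highest value that each list holds (2.71 in the pooled list, shared by 776 regions), so it does not order them. Both regions were also in the authors' thresholded ce10 list, at ranks 32 and 67, where they were matched by width, summit offset and signal value.

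The replicate ranks of the pair were compared with those of other strong regions. The absolute log2 ratio of replicate ranks was 0.175 for mir-8196.1 and 0.15 for mir-8196.2. Over the 100 strongest pooled regions its median was 0.102 (quartiles 0.0286 and 0.173), and over 1092 regions of the strong set that both replicates held it was 0.639 (0.238 and 1.36). The pair's values were at or above those of 76% (mir-8196.1) and 69% (mir-8196.2) of the 100 strongest regions. The shifts behind them were small, from rank 31 to 35 and from 71 to 64, in 2 libraries. They cannot decide whether the pair moved more than most at the top of the list.

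Other regions nearby were weak. Within 3000 bp of mir-8196.1 the pooled list held 5 other regions, with signal values between 7.20 and 9.23. Within the same distance of mir-8196.2 it held 3, between 7.50 and 15.4. The widths of the pair's own regions were 367 bp (X, 2328770 to 2329136) at mir-8196.1 and 272 bp (X, 14324422 to 14324693) at mir-8196.2, against a median of 360 bp over the pooled list. Reads from such related sequences could in principle align to more than 1 place, so the regions were searched for repeats. Every word of 36 bases in either region occurred once in the genome, as did 97.7% of the 25-base words at mir-8196.1 and 95.6% at mir-8196.2. Only exact words were counted, and the aligner is not given in the sources used here. Reads that align with mismatches were therefore not covered.

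**Figure D1:**
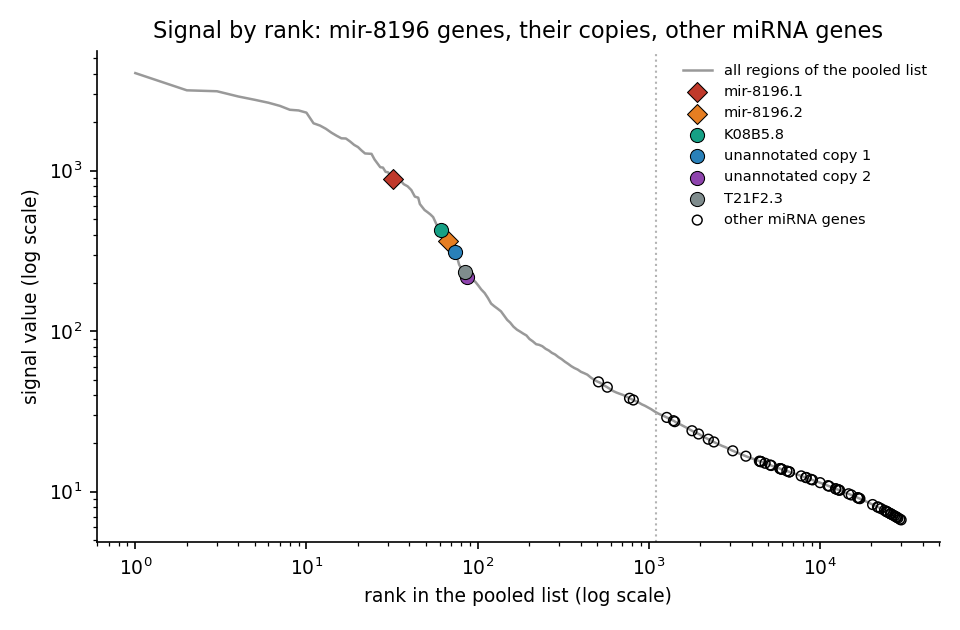
Signal value (y axis, log scale) by rank (x axis, log scale) of the regions of the pooled list (grey line), with mir-8196.1 and mir-8196.2 (diamonds), 4 related copies described further on (filled circles) and the other miRNA genes with a region (open circles); the dotted line marks the end of the strong set. The pair and the copies lie between ranks 32 and 87, and the strongest other miRNA gene is at rank 509.

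The other miRNA genes that had a region had a weaker one than the pair. In the pooled list 65 of the 258 other miRNA genes had a summit within 200 bp (25.2%), and 70 (27.1%) did in replicate 1 and 49 (19.0%) in replicate 2. Of all 46888 other annotated nuclear genes, 16008 (34.1%) had a region by the same rule in the pooled list, so most had none. A longer gene offers more room for a summit by this rule. Gene length was not taken into account here or in the strong set below. The pooled signal values of the 65 miRNA genes ran from 6.68 through a median of 11.4 to 48.3, so that neither gene of the pair overlapped with them. In the strong set stood 4 other miRNA genes in the pooled list (1.55%), 3 in replicate 1 (1.16%) and 6 in replicate 2 (2.33%). Of these nuclear genes, 2.43% had a summit within 200 bp of the gene in that set of the pooled list. The pair held places 1 and 2 among the miRNA genes with a region in all 3 lists. The 1 gene with a microRNA name that is annotated otherwise, mir-1831 (II, 6968530 to 6968551, minus strand), is classed as an snRNA, and the region it shares with the snRNA gene sup-39 was stronger than both, at rank 21 with a signal value of 1335.

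The 4 other miRNA genes in the strong set were mir-52 (signal 48.3, rank 509), mir-51 (44.8, rank 573), mir-53 (38.2, rank 773) and mir-8192 (37.3, rank 813). mir-51, mir-52 and mir-53 belong to the mir-51 family, which embryos need for development. In replicates 1 and 2 mir-52 was at ranks 448 and 666 and mir-51 at 304 and 508. mir-53 was at 1612 and 721, and mir-8192 at 782 and 978. Shifts were larger over the whole strong set than among the 100 strongest regions (median absolute log2 ratios 0.639 and 0.102). Whether these 4 genes moved more than regions of like strength was not tested. Their summits were less regular than those of the pair, at 143 bp upstream for mir-52, 73 bp upstream for mir-51, 38 bp upstream for mir-53 and 66 bp inside mir-8192. The summit at mir-8192 also lies within 200 bp of flcn-1, which encodes folliculin, and those of mir-51 and mir-52 also lie near other non-coding RNA genes.

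**Figure D2:**
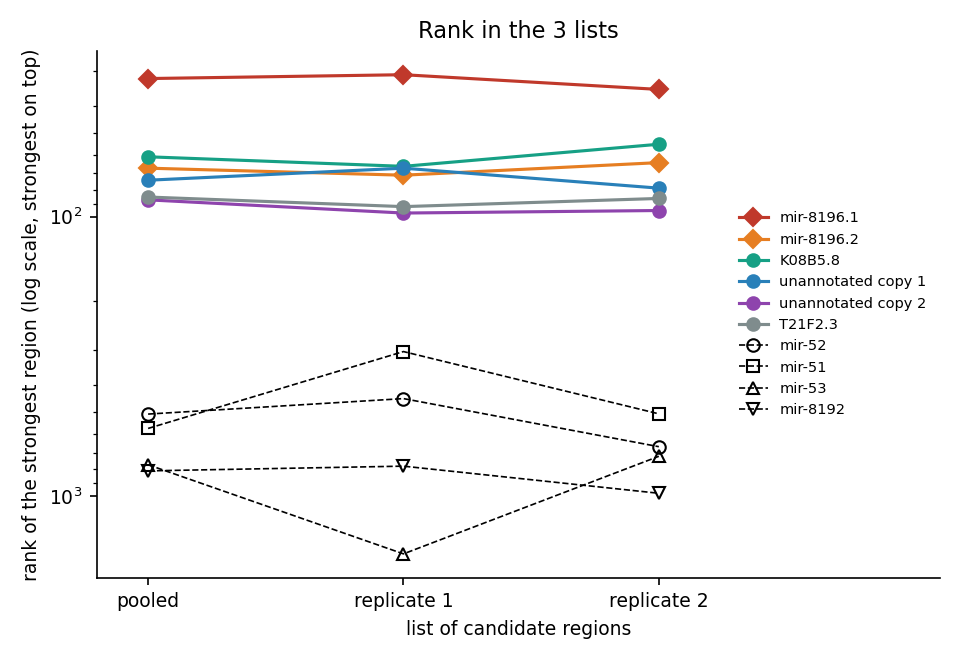
Rank of the strongest region (y axis, log scale, strongest on top) in the pooled, replicate 1 and replicate 2 lists for mir-8196.1 and mir-8196.2 (diamonds), the 4 copies (filled circles) and the 4 strongest other miRNA genes (open symbols, dashed). The pair stays at ranks 31 to 71 in the 3 lists, while the 4 other genes range from 304 to 1612.

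The summits of the pair lay just upstream of the genes. At mir-8196.1 the summit was 54 bp upstream of the annotated 5′ end in the pooled list, 55 bp in replicate 1 and 64 bp in replicate 2. At mir-8196.2 it was 46, 45 and 46 bp upstream in the same order. Among genes with a region in the strong set, the median summit was 48 bp upstream for 60 of 99 snRNA genes (quartiles −57 and −38), 41.5 bp upstream for 16 of 18 SL2 RNA genes (−48.2 and −38.5) and 48.5 bp upstream for 60 of 346 snoRNA genes (−60 and −37). snoRNAs guide the chemical modification of other RNAs. For 62 of 612 tRNA genes the median was 19.5 bp upstream, with quartiles at −32.8 and 23.8. In the pooled list both members fell within the quartiles of the snRNA and snoRNA genes and outside those of the tRNA genes. mir-8196.2 was also within those of the SL2 genes, and mir-8196.1 was not. The replicate 2 summit of mir-8196.1 lay upstream of the quartiles of all these classes in the pooled list.

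**Figure D3:**
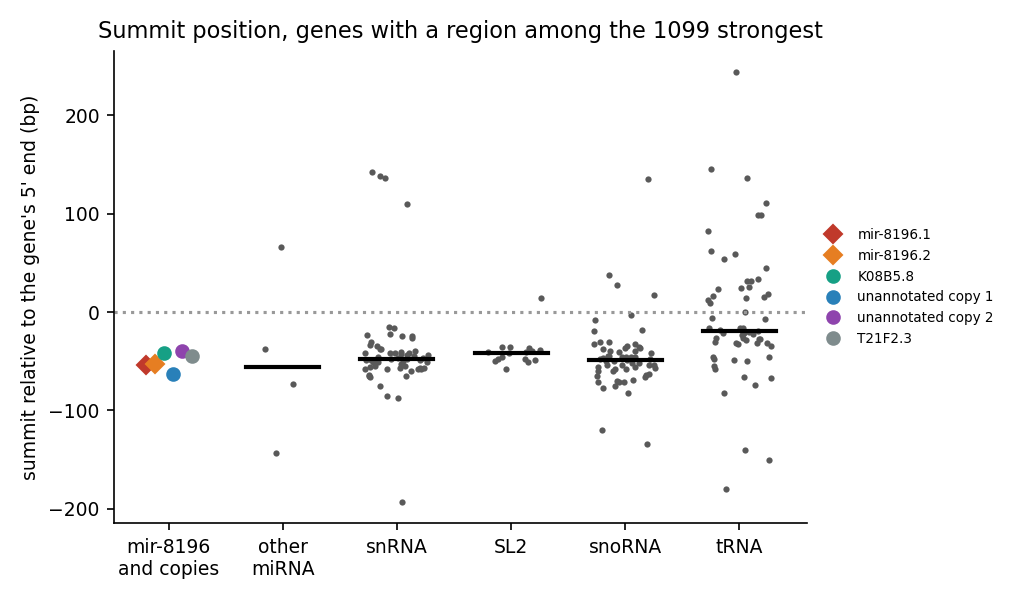
Position of the pooled summit relative to the 5′ end (y axis, bp, negative upstream) for mir-8196.1 and mir-8196.2 (diamonds) and their copies (filled circles), placed relative to the base aligned to the 5′ end of mir-8196.1, and for other genes with a region in the strong set (grey points, median as a bar). The copies, snRNA, SL2 and snoRNA genes gather upstream, with medians for these 3 classes of −48, −41.5 and −48.5 bp, and tRNA genes are spread around −19.5 bp.

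By strength the pair also stood among these classes. The median pooled signal of the genes in the strong set was 142 for snRNA, 538 for SL2, 135 for snoRNA and 41.2 for tRNA genes. mir-8196.1 was exceeded by 8 snRNA, 4 SL2, 15 snoRNA and no tRNA genes, and mir-8196.2 by 13 snRNA, 10 SL2, 24 snoRNA and 4 tRNA genes. The strongest of each class were the SL2 RNA gene sls-2.4 (4055), the snoRNA gene Y53F4B.47 (3168), the snRNA gene W05B2.8 (2651) and the tRNA gene K11H12.t1 (686), whose signal was below that of mir-8196.1.

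The genes closest in rank over the 3 lists were compared among 1724 annotated non-coding RNA genes with a region in each. For mir-8196.1 they were linc-154, which has the same region, and the snoRNA genes C16D9.10 (ranks 36, 33 and 36 in the pooled, replicate 1 and replicate 2 lists) and M03D4.78 (35, 34 and 34). For mir-8196.2 they were the snRNA gene K09C6.12 (69, 68 and 68), and the tRNA gene ZC412.t1 and the ncRNA gene ZC412.12, which share a region (65, 65 and 66). The summits lay 46 bp upstream of C16D9.10, 60 bp upstream of M03D4.78 and 40 bp upstream of K09C6.12.

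The pair lies in different surroundings. The first 99 bp of mir-8196.1 overlap the end of linc-154 (X, 2326744 to 2329092), a long non-coding RNA gene of 1 exon on the same strand, and that exon holds the summit. Its nearest protein-coding gene, T01B6.1, begins 6560 bp away. prx-1 (X, 14313927 to 14326726) holds mir-8196.2 in an intron, on the opposite strand, between an exon that ends at 14323759 and one that starts at 14325524. prx-1 encodes an ATPase of peroxisome biogenesis. The summit at mir-8196.2 was in the intron too. The genes are 11995230 bp apart.

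A search of the genome with both gene sequences found 6 related loci, the pair and 4 others, all on X (blastn, E value at most 1e-10). This search was made after the regions of the pair had been seen. The next hit after them was 86% identical over 43 bp, with an E value of 0.006. The first of the others is the ncRNA gene K08B5.8 (X, 16564730 to 16564828, plus strand). A pair of loci follow it on the same strand within 2034 bp, at 16566008 to 16566163 and at 16566627 to 16566763; no gene of the annotations used here overlaps either, and they are called unannotated copies 1 and 2. The last is T21F2.3 (X, 16721943 to 16722113, minus strand), annotated as a snoRNA gene, 155 kb further on. No miRNA is annotated at any of these 4. Identity to mir-8196.1 was 91.7% for mir-8196.2 over 108 bp, 91.2% for T21F2.3 over 113 bp, 88.1% for each unannotated copy over 109 bp and 85.5% for K08B5.8 over 110 bp.

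All 4 had strong regions as well. K08B5.8 had a pooled signal value of 428 and ranked 61, 66 and 55 in the pooled, replicate 1 and replicate 2 lists. Unannotated copy 1 had 312, with ranks 74, 67 and 79, and unannotated copy 2 had 216, with ranks 87, 97 and 95. T21F2.3 had 233, with ranks 85, 92 and 86. The weakest of the 6 loci was thus above the median of snRNA genes in the strong set. mir-8196.1 was the strongest of the 6 in every list, K08B5.8 came next and mir-8196.2 after it in the pooled list and in replicate 2, while in replicate 1 unannotated copy 1 ranked ahead of mir-8196.2.

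The family held 6 of the 10 strongest regions on X in the pooled list, at places 1, 2, 3, 4, 8 and 9. Places 1 and 3 are the pair itself, which was chosen after its signal had been seen. In replicate 1 the family, with the pair again counted, held 6 of 10 as well. In replicate 2 it held 5, with the remaining locus at place 12. The other 4 in the pooled list were at the protein-coding genes C33E10.10, nssp-91, dgk-1, a diacylglycerol kinase gene, and mocs-1, a gene of molybdenum cofactor synthesis. By the same count of exact words, every 36-base word in the regions of the 4 further copies was also unique in the genome. So were 94.8% to 100% of their 25-base words.

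The 100 bp upstream of the 6 loci are shown because the summits lie there and because they carry the likeness to snRNA promoters. Each is written 5′ to 3′ on the strand of its gene and ends at the base before the one aligned to the 5′ end of mir-8196.1, which for mir-8196.2 lies 7 bp inside the annotated 5′ end, for T21F2.3 also 7 bp inside and for K08B5.8 6 bp. Capitals mark the 20 bases that scored best under a matrix made from snRNA genes. The positions, in ce11, are chrX:2328894-2328993 (plus) for mir-8196.1, chrX:14324511-14324610 (minus) for mir-8196.2, chrX:16564636-16564735 (plus) for K08B5.8, chrX:16565906-16566005 (plus) for unannotated copy 1, chrX:16566506-16566605 (plus) for unannotated copy 2 and chrX:16722107-16722206 (minus) for T21F2.3.
mir-8196.1: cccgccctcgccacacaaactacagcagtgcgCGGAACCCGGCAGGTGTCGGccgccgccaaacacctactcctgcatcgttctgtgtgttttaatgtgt
mir-8196.2: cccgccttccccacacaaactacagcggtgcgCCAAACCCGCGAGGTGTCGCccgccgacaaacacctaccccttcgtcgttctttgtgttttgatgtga
K08B5.8: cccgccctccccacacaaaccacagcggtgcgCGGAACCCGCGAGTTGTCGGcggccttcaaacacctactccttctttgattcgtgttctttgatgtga
unannotated copy 1: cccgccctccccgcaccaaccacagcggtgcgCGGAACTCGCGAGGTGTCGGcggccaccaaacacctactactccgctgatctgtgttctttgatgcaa
unannotated copy 2: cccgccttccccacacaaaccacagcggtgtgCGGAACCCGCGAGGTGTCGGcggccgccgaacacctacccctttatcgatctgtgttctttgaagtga
T21F2.3: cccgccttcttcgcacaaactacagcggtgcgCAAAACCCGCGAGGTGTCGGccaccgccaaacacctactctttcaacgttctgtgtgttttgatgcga

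The likeness of the 6 loci was not even along their length. In the 100 bp upstream mir-8196.1 and mir-8196.2 were 85% identical, and 61% of the bases were the same in all 6. In the 50 bp before that stretch identity of the pair was 64.1%, and 18% of the bases were the same in all 6. In the part of the gene before the precursor these values were 61.4% and 38.6%, in the precursor 94% and 77.3%, and in the part after it 81% and 57.1%. The part before the precursor was not even either: 1 of its first 24 bases was the same in all 6 copies, and 16 of the next 20 (80.0%) were. The low stretch thus lay at the annotated start of the gene, between the sequence around the summits and that around the hairpin. The upstream 100 bp held 56% to 63% G and C.

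**Figure D4:**
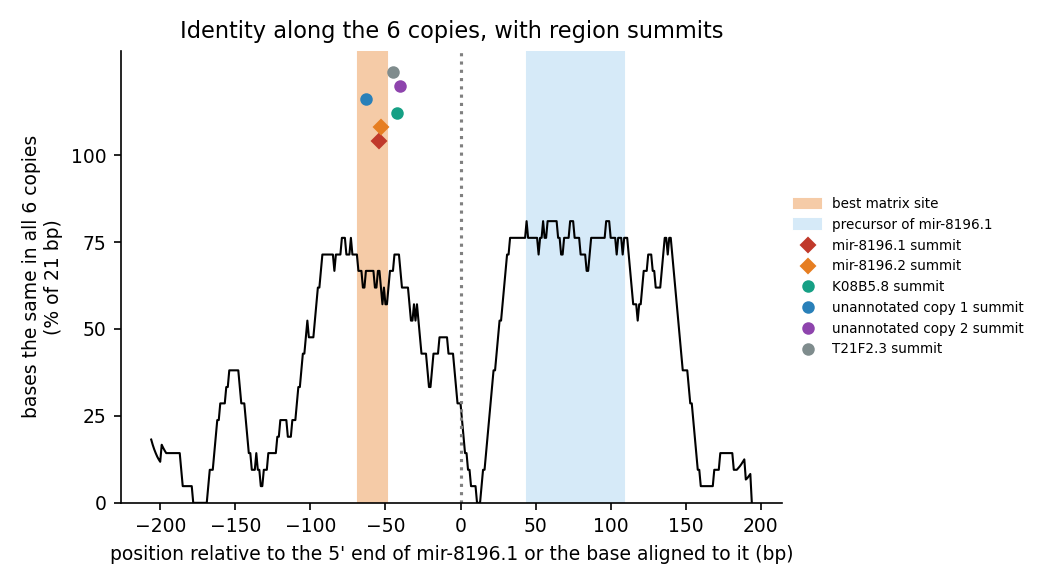
Share of bases that were the same in all 6 copies (y axis, % in windows of 21 bp) by position relative to the 5′ end of mir-8196.1 (x axis, bp), with the best matrix site and the precursor shaded and the pooled summit of each copy marked above the curve. The 6 summits lie between 63 and 40 bp upstream, in or next to the matrix site at 68 to 49 bp upstream, and identity is low over about the first 24 bases of the gene, from which it rises to the precursor.

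Relative to the base aligned to the 5′ end of mir-8196.1, the pooled summits lay 54 bp upstream at mir-8196.1, 53 bp at mir-8196.2, 42 bp at K08B5.8, 63 bp at unannotated copy 1, 40 bp at unannotated copy 2 and 45 bp at T21F2.3. Over the 3 lists they ran from 64 to 26 bp upstream. The longest word that all 6 shared upstream was 9 bases long, from 39 to 31 bp upstream (aacacctac, searched on both strands). It occurs within 100 bp upstream of 30 of 46890 genes (0.064%). These include the 4 annotated loci from which the word was taken, and none of the 30 is an snRNA or SL2 gene.

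The upstream element was measured with a weight matrix of 20 bases fitted to the 100 bp upstream of the 99 snRNA genes, where the proximal sequence element lies, and scored on the strand of the gene. A score is in bits over the base composition, and a match describes letters and does not show a working site. mir-8196.1 scored 23.9 at 68 to 49 bp upstream, and mir-8196.2 scored 20.6 at 61 to 42 bp upstream of its own annotated 5′ end, the same aligned place. The other copies scored higher: 28.6 at K08B5.8, 26.8 at unannotated copy 1, 28.9 at unannotated copy 2 and 25.1 at T21F2.3, all at that place. The order by score was not the order by signal, since the pair scored lowest of the 6 and mir-8196.1 had the strongest region.

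No other miRNA gene scored as high as mir-8196.1, and 1 of 258, mir-2219, scored as high as mir-8196.2 (0.388%). The median of the other miRNA genes was −1.64 bits. The gene mir-1831 has a microRNA name but is annotated as an snRNA, inside the snRNA gene sup-39, and was counted with the snRNA genes; it scored 25.9 bits. At or above the score of mir-8196.2 were 44 of 99 snRNA genes (44.4%), from which the matrix was made, 7 of 18 SL2 genes (38.9%), 29 of 346 snoRNA genes (8.38%, T21F2.3 among them), 0 of 612 tRNA genes and 5 protein-coding genes (0.025%). Over all 46890 genes 0.096% reached the score of mir-8196.1 and 0.228% that of mir-8196.2. With a matrix 5 bases shorter these shares were 0.175% and 0.066%, and the order of the pair turned (16.5 bits for mir-8196.1 and 19.8 bits for mir-8196.2). The best sites of the snRNA genes that passed began a median of 61 bp upstream. That of mir-8196.2 began at 61 bp and that of mir-8196.1 at 68 bp, from annotated 5′ ends 7 bp apart in the alignment.

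**Figure D5:**
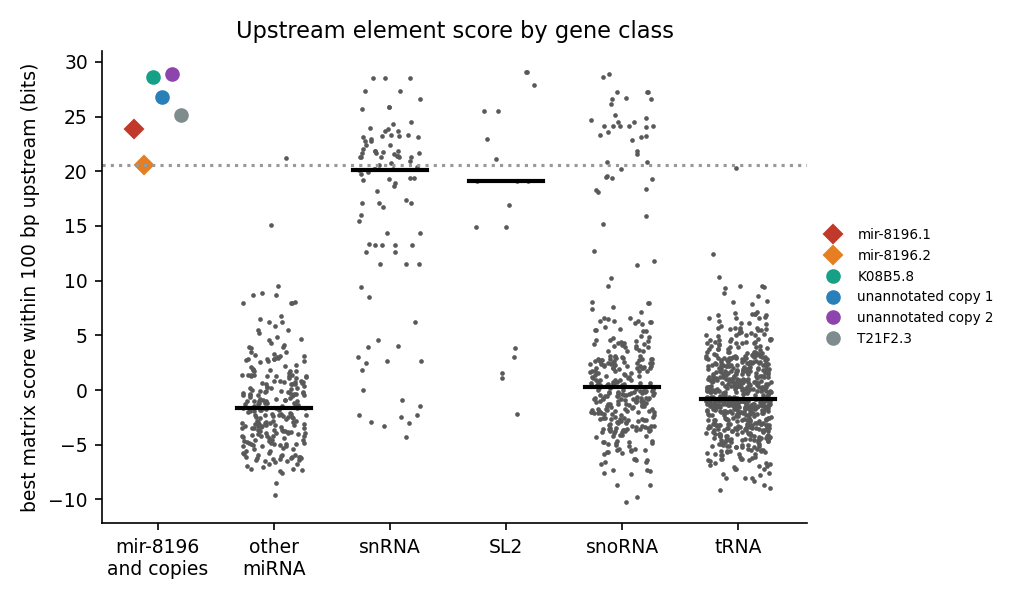
Best matrix score in the 100 bp upstream (y axis, bits) for mir-8196.1 and mir-8196.2 (diamonds), their copies (filled circles) and single genes of 5 classes (grey points, median as a bar); the dotted line marks the score of mir-8196.2. The pair lies above the medians of the snRNA (20.1 bits), SL2 (19.1 bits) and snoRNA (0.231 bits) genes. mir-8196.2, at 20.6 bits, is close to those of the snRNA and SL2 genes. Among the other miRNA genes 1, mir-2219 at 21.2 bits, is above the line.

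Most genes with such a score had a strong region, and some genes without one did as well. Of the 105 genes besides the pair at or above the score of mir-8196.2, 82 (78.1%) had a summit within 200 bp in the strong set of the pooled list, at a median of 48.5 bp upstream. This held for 37 of the 44 snRNA genes and 23 of the 29 snoRNA genes, and for 15 of 25 genes outside the snRNA, SL2 and snoRNA classes, K08B5.8 among them. It held for 2.43% of all 46888 genes besides the pair. Overlapping genes with a shared region were counted apart, such as mir-1831 and sup-39 (both 25.9 bits, rank 21). The shares are therefore not of independent sites. Of the genes with a lower score, such a summit was found at 23 of 55 snRNA genes (41.8%), 9 of 11 SL2 genes (81.8%) and 37 of 317 snoRNA genes (11.7%). A lower score thus went with a strong region in many genes too. The strongest region of all, at sls-2.4, had a score of 3.81 bits. The miRNA gene mir-2219 (V, 2924580 to 2924655, minus strand) was among the genes that reached the score of mir-8196.2 without a strong region. Its only pooled region had a signal of 15.5 and rank 4438, with no region in replicate 1 and rank 3723 in replicate 2. Its best site lies at 92 to 73 bp upstream, and whether this place bears on the signal was not tested.

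In vertebrates the RNA polymerase III genes that use SNAPc, such as those of the U6 snRNA, also carry a TATA box downstream of the element, and polymerase III stops at runs of T, so both were looked for. Between 40 and 15 bp upstream neither mir-8196.1 nor mir-8196.2 held TATA (gene strand). It was found there in 25.3% of snRNA, 5.56% of SL2, 8.96% of snoRNA, 10.1% of other miRNA and 15.4% of all genes. Most genes of each of these classes thus lacked it too. Runs of at least 4 T occurred 3 times inside each gene, the longest of 5 bases in mir-8196.1 and 6 in mir-8196.2. After the annotated 3′ end the first run began at 34 bp for mir-8196.1 and at 46 bp for mir-8196.2. Transcripts of these genes were not measured here.

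The arms were kept to different degrees in the copies. Against mir-8196.1, arm a differed at 1 aligned position in mir-8196.2, at 1 in unannotated copy 2, at 2 in T21F2.3, at 5 in K08B5.8 and at 6 in unannotated copy 1, of 26 alignment columns. Arm b differed at 1 position in mir-8196.2, 2 in unannotated copy 2, 2 in T21F2.3, 4 in K08B5.8 and 3 in unannotated copy 1, of 25. Within the seed columns of mir-8196.1, mir-8196.2 and unannotated copy 2 had no difference in either arm, T21F2.3 had 1 in arm b, K08B5.8 had 1 in arm a and unannotated copy 1 had 1 in each.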

How the data were processed

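The deposited files are peak lists from 2 ChIP-seq libraries, with 1 row per region: the authors' signal value, the −log10 q value and the summit offset. Per the labels, the candidate lists are peaks and background for input to IDR, the irreproducible discovery rate, which compares ranks between replicates. The sources used here do not give aligner, caller or versions; depth is unknown, so no counting interval is given. The thresholded list in ce11 has regions of chromosome I only and cannot list the pair. The ce10 lists are from the same libraries, and a region was matched there by width, summit offset and signal.

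Members, lists and alternatives were chosen with earlier results of these data known, and the copies were sought after seeing the regions. A region belonged to a gene if its summit lay within 200 bp. Ranks follow the authors' signal value, and the strong set was the 1099 strongest regions of a list. Genes and sequences are from RefSeq (WBcel235, the same assembly as ce11). Named genes were the pair, miRNA genes in the strong set, host or nearest genes, the 3 closest in rank, the most similar genes and the strongest of each class; mir-2219, mir-1831, sup-39 and the 4 remaining strongest genes on X were named after their values were seen. Tools were blastn 2.17.0, MAFFT 7.526, RNAfold 2.7.2, Biopython 1.88, pandas 2.3.3 and NumPy 2.4.6; the matrix fit (pseudocount 0.5) was tested on simulated data. With 1 group, no test between groups was made. Whether the replicates came from separate cultures is not stated beyond the term biological replicate.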

Additional observations from a re-analysis of the deposited data

How the results depend on the processing

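Without replicate 1 or 2 the rank of mir-8196.1 lay between 31 and 35, and that of mir-8196.2 between 64 and 71. Both ranks were the same with 100 or 500 bp and with ties ranked last (32 and 67). They were also 32 and 67 in the pooled ce10 list. Regions were matched there partly by signal value, in lists from the same libraries, so this equality was not a separate check. With 500 bp, 121 other miRNA genes had a pooled region and 10 were in the strong set. With the strong set reduced to as many regions as the thresholded ce11 list holds, 0 were in it, and with its size halved, 1 was. Leaving out a replicate gave 49 to 70 and 3 to 6 in place of 65 and 4. Between 0 and 1 other miRNA genes reached the score of either member under each other matrix or window. With a window of 250 bp, 0.162% of all genes reached the score of mir-8196.1 and 0.369% that of mir-8196.2. All 6 copies were among the 100 strongest in each list, a count added after the data were seen. It includes the pair, which was chosen after its ranks had been seen. Each other E value limit, also added afterwards, kept the same 6 loci, so these limits were not a separate check. No paired analysis was possible because there is 1 group. The lists give no reads, so small differences in rank cannot be weighed against depth.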
